A study of Mus musculus with 12 samples.

Results

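Imprinted genes were followed in mouse primordial germ cells, the embryonic precursors of eggs and sperm, across the developmental window in which these cells lose their parental imprints and after loss of Tet1. The set held 40 genes taken by name, of which 18 are expressed mainly from the maternal copy, 21 mainly from the paternal copy, and 1, Gnas, makes products of either kind. All 40 had a row among the 22552 rows of each stage table, and 38 had a row among the 16394 rows of the knockout table, which held none for Dcn or Gnas. All cells came from C57BL/6 embryos. The wild-type groups were embryonic day 9.5 (E9.5), with 2 libraries, E11.5, also with 2, and E13.5. At that last stage 3 libraries were labelled E13.5m and 3 more wild-type libraries carried no sex in their labels. The knockout group, Tet1 -/-, was taken at E13.5 and held 2 libraries, with no sex and no further detail of the allele in the labels. Of the 12 libraries, those at E9.5, E11.5 and E13.5m were made from 400 to 5000 cells each, and the other wild-type libraries and the knockout libraries from 500 to 2000 cells.

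An imprinted gene is active on the copy inherited from only one parent, because DNA methylation laid down in the egg or the sperm marks the copies differently. Such differentially methylated regions often sit over the promoter of one gene or of a long non-coding RNA and set the activity of a whole cluster. Primordial germ cells erase these marks during migration and settlement in the gonad, so that new ones can be laid down according to the sex of the embryo. TET1 oxidises 5-methylcytosine, the methylated base. Many paternally expressed members, such as Igf2, Dlk1, Mest and Peg3, are known for promoting or tuning growth of the fetus, and many maternally expressed members, such as Cdkn1c, Phlda2, Grb10 and Igf2r, for restraining it.

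Levels were deposited as 1 value per group in FPKM, which scales fragments by the length of the transcript and the number mapped, with no value per library. A spread between libraries cannot be shown for a level, and the depth is unknown. Each log2 ratio carries a standard error (SE) implied by the deposited test, and a gene is said to rise or fall where the authors' q-value or FDR was under 0.05. No label says that libraries of 1 group came from separate embryos, so these tests measure a spread between libraries that may be technical. The column named E13.5f in one stage table matches no sample title. Set against wild type in the knockout table, its values had a median ratio of 1.04 over 10996 genes, with 5th and 95th percentiles of 0.973 and 1.06. If both columns come from the same libraries, sex and library set cannot be told apart between E13.5f and E13.5m. In bulk samples, fewer cells of a type and less RNA per cell cannot be told apart.

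All 10 germ cell markers on a fixed list were at 1 FPKM or more in every group, and their summed level ran from 2874 to 5457 FPKM. Much of the highest sum, at E13.5m, was Dppa3, at 2823 FPKM, and Dazl, at 1366 FPKM. Single markers moved between stages: Dazl rose from 2.24 to 355 FPKM and Ddx4 from 10.3 to 176 FPKM between E9.5 and E11.5. Dazl rose again to both E13.5 groups, and Kit fell to E13.5m. No other germ cell marker was called between stages. Markers of other cells moved between groups too. The summed level of 9 blood and macrophage markers was 2172 FPKM at E9.5 and 30.5 FPKM at E11.5 in their shared table, with 5 of 7 tested markers falling and Ptprc listed at 0 in both groups. From E11.5 the sum went from 26.5 to 5.39 FPKM at E13.5f, where Hba-x fell from 8.60 to 0.173 FPKM. At E13.5m it went from 27.1 to 38.0 FPKM with none called, Hba-a1 being at 5.30 and 19.1 FPKM. The sum of 10 mesenchyme markers was 118 FPKM at E11.5 and 31.2 FPKM at E13.5m, where Sparc fell, and 116 and 155 FPKM at E11.5 and E13.5f, with none called. Nearly all of these sums was Sparc, at 116 and 30.4 FPKM in the E13.5m comparison and 113 and 154 FPKM in the E13.5f comparison. No other mesenchyme marker reached 1 FPKM in these groups. Of 8 endothelial markers Esam and Tek rose to E11.5 and fell to E13.5f, and Esam fell to E13.5m. Emcn and Tie1 were listed at 0 in every stage group. The list summed to 71.0 FPKM at E9.5 and 86.3 at E11.5, most of it Pecam1, at 60.4 and 70.8 FPKM and not called. From E11.5 the sum went from 75.1 to 73.2 FPKM at E13.5f and from 76.9 to 45.4 at E13.5m. Cldn5 went the other way from Esam, from 10.3 to 3.44 FPKM at E11.5. It then had higher values at E13.5f (4.35) and E13.5m (4.07), never called. The 10 gonadal soma markers summed to between 2.35 and 14.6 FPKM in every group. The highest sum was at E13.5m, 14.6 FPKM against 3.59 at E11.5, with all 8 tested markers higher in value and Amh rising. At E11.5 and E13.5f the sum was 3.51 and 3.26 FPKM, with 3 of 6 tested markers higher. The part of these other cells in the results on imprinted genes was not tested.

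Promoters are shown for 6 members that were called after E11.5, because they stand for the 2 ways in which a methylated region can act. Plagl1, Mest and Zrsr1 are paternally expressed and known to start inside a region methylated in the egg. Phlda2, Slc22a18 and Ascl2 are maternally expressed and belong to the Kcnq1ot1 cluster, where the egg-methylated region lies over another transcript. Each window covers the 190 bases from 250 to 61 before the RefSeq start in build GRCm38.p6, written 5′ to 3′ on the gene's strand, and capitals mark the CG dinucleotides at which methylation is laid down. The windows are chr10:13090582-13090771 (+) for Plagl1, chr6:30737800-30737989 (+) for Mest, chr11:22971755-22971944 (+) for Zrsr1, chr7:143502585-143502774 (-) for Phlda2, chr7:143473539-143473728 (+) for Slc22a18 and chr7:142969325-142969514 (-) for Ascl2.
Plagl1: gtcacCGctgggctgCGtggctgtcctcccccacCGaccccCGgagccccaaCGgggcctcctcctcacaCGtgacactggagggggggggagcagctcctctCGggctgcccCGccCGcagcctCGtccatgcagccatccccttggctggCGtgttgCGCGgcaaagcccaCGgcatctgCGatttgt
Mest: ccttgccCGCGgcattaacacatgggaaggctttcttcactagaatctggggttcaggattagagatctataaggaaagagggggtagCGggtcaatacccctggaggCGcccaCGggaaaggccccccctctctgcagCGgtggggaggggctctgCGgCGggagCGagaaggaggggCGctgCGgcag
Zrsr1: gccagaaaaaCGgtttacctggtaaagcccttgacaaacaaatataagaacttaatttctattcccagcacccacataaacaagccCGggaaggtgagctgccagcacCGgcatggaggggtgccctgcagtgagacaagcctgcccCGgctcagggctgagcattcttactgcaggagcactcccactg
Phlda2: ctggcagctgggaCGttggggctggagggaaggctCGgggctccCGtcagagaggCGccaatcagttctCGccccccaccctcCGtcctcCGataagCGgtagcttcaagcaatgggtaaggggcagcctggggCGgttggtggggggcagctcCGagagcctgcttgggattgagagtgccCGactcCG
Slc22a18: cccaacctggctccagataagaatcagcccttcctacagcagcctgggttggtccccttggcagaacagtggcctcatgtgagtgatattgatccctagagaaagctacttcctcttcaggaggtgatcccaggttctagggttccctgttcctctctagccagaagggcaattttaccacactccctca
Ascl2: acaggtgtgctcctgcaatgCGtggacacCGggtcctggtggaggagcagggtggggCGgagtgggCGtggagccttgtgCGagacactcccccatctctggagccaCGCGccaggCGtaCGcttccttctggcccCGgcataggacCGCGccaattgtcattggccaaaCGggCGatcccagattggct

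The 6 windows differed widely in CG content. Plagl1 held 15 CG dinucleotides, Ascl2 14, Phlda2 12 and Mest 11, against 4 for Zrsr1 and 0 for Slc22a18. Mest has several RefSeq windows, and the window shown is among those of the gene with the most CG dinucleotides. Another Mest window, chr6:30733256-30733445 (+), held 4, so the count for Mest depends on the start chosen. The median over all 32851 RefSeq promoter windows of this length was 4, and over the 49 windows used for 32 members it was 6. The hexamer TGCCGC, which the imprint-protecting zinc finger protein ZFP57 is known to bind when methylated, was searched on both strands. It was found in 6.28% of all windows and in 12.2% of the members' windows, those of Copg2, Mcts2, Meg3, Mest and Plagl1. Of 15 windows of paternally expressed members with a promoter in a germline methylated region 4 held it, of 13 windows of other paternally expressed members 0, and of 17 windows of maternally expressed members 2. The 4 include overlapping windows of Mest. Counted by gene, the hexamer was found in 3 of 10, 0 of 8 and 2 of 13 members in that order. It was found in 5 of 32 members in all, beside 1938 of 27025 RefSeq genes. A match of letters is a description of the window and says nothing on binding.

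Levels are given first, on a common FPKM scale set by the E11.5 column that the 3 stage tables share. Across the stages, 31 of 40 members were at 1 FPKM or more at E9.5, 25 at E11.5, 28 at E13.5f and 28 at E13.5m. At 20 FPKM or more were 9, 8, 9 and 8 members in the same order. The median member level was 3.93 FPKM at E9.5, 4.0 at E11.5, 6.82 at E13.5f and 3.17 at E13.5m. In the knockout table it was 7.73 FPKM in wild type and 6.17 in Tet1 -/-. In no group did 7 members reach 1 FPKM: Kcnq1ot1, Kcnq1, Zim1, Magel2, Rasgrf1, Dcn and Slc22a3.

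Among growth restrainers, Phlda2, a small pleckstrin-domain protein that limits placental growth, stood at 342 FPKM at E9.5, 95.9 at E11.5, 278 at E13.5f and 36.5 at E13.5m. In the knockout table Phlda2 was at 293 FPKM in wild type and 407 in Tet1 -/-. It was thus high at E9.5 and E13.5f and low at E11.5 and E13.5m. Cdkn1c, a cyclin-dependent kinase inhibitor from the same cluster, stood at 18.4, 28.1, 145 and 65.8 FPKM in that stage order, and at 153 and 85.0 FPKM in wild type and Tet1 -/-. Its level was higher in both E13.5 stage groups than before. Grb10, an adaptor that dampens insulin signalling, was at 11.6 FPKM at E9.5 and at 0.891, 0.735 and 0.404 FPKM in the 3 later groups, so that E9.5 stood alone. Igf2r, the receptor that clears IGF2, ranged from 1.87 to 5.53 FPKM over the stages.

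Of the remaining members of the Kcnq1ot1 cluster, Slc22a18, a transporter gene next to Phlda2, was at 8.03, 3.85, 33.8 and 3.38 FPKM from E9.5 to E13.5m. It was at 35.0 FPKM in wild type and 14.3 in Tet1 -/-, and E13.5f was the high stage group. Ascl2, a basic helix-loop-helix factor of the trophoblast, was at 2.17, 3.32, 16.8 and 26.3 FPKM over the stages and at 17.5 and 7.37 FPKM in wild type and Tet1 -/-. Unlike Slc22a18, Ascl2 was high in both E13.5 groups. The long non-coding RNA Kcnq1ot1 itself was between 0.119 and 0.391 FPKM in all 6 columns, and Kcnq1, a potassium channel gene, was listed at 0 at E9.5, E11.5 and in Tet1 -/-.

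In the Dlk1-Meg3 cluster, Dlk1, a Notch-like regulator of differentiation from the paternal copy, was at 1.99, 0.142, 6.14 and 1.29 FPKM over the stages and at 6.37 and 0.896 FPKM in wild type and Tet1 -/-. Meg3, the maternally expressed non-coding RNA of the cluster, was at 18.0, 4.16, 7.49 and 2.95 FPKM, and at 7.55 and 3.46 FPKM in wild type and Tet1 -/-. E11.5 was the low point of Dlk1, while Meg3 was highest at E9.5. In the H19-Igf2 cluster, H19, a maternally expressed non-coding RNA, was at 13.4, 5.77, 15.1 and 3.73 FPKM, and Igf2, the fetal growth factor, at 2.12, 1.39, 9.34 and 2.15 FPKM.

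Among paternally expressed members, Mest, which encodes a hydrolase-fold protein of mesoderm, was at 34.6, 14.9, 22.9 and 89.7 FPKM over the stages, with E13.5m highest. Plagl1, a zinc finger regulator of other imprinted genes, was at 1.10, 0.437, 4.24 and 0.748 FPKM, with E13.5f highest. Zrsr1, a retrogene related to splicing factor genes, was at 1.28, 0.571, 5.58 and 4.03 FPKM and was higher in both E13.5 groups than before. Slc38a4, an amino acid transporter gene, was at 54.4, 38.9, 32.9 and 8.52 FPKM, with E13.5m lowest. Peg10, a gene derived from a retrotransposon, was at 2.09 FPKM at E9.5 and between 0.0881 and 0.291 FPKM in the 3 later stage groups. Its neighbour Sgce was at 3.27 FPKM at E9.5 and listed at 0 at E11.5, while Asb4, the maternally expressed member of that cluster and part of a ubiquitin ligase, was at 3.75, 6.51, 21.5 and 17.3 FPKM.

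Several abundant members were never called. Commd1 ranged from 66.7 to 118 FPKM over the stages, Ndn, a growth suppressor of neurons, from 41.2 to 87.2, Ube3a, a ubiquitin ligase, from 17.6 to 28.9, and Peg3, a zinc finger gene, from 7.40 to 26.2 FPKM. Copg2 ranged from 15.6 to 21.6 FPKM and Mcts2 from 16.7 to 23.0 FPKM. Lower still over the stages were H13, from 6.27 to 12.8 FPKM, Trappc9, from 5.93 to 9.77, Mkrn3, from 4.03 to 5.31, and Impact, from 0.903 to 7.79. Nnat, Nap1l5, Usp29 and Peg12 stayed between 0.179 and 3.12 FPKM. Gnas, which encodes the stimulatory G protein subunit and was called, stood at 100.4, 78.8, 196 and 55.2 FPKM. For Snrpn, a spliceosome gene, the tables did not match: it stood at 8.87 FPKM in the E13.5f column and 121 FPKM in wild type of the knockout table, a ratio of 13.7. In the stage tables Snurf, which shares the locus of Snrpn, was listed separately at 131.8 FPKM at E11.5 and 106.7 at E13.5f, and the knockout table had no row for it. Between the same columns Nnat had a ratio of 2.49 and Zrsr1 one of 1.59, both over a locus shared with another gene. Values of 20 members rest on a locus that the stage tables share with another gene, among them Mest with Copg2 and Zrsr1 with Commd1, and reads there can be split uncertainly.

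**Figure D1:**
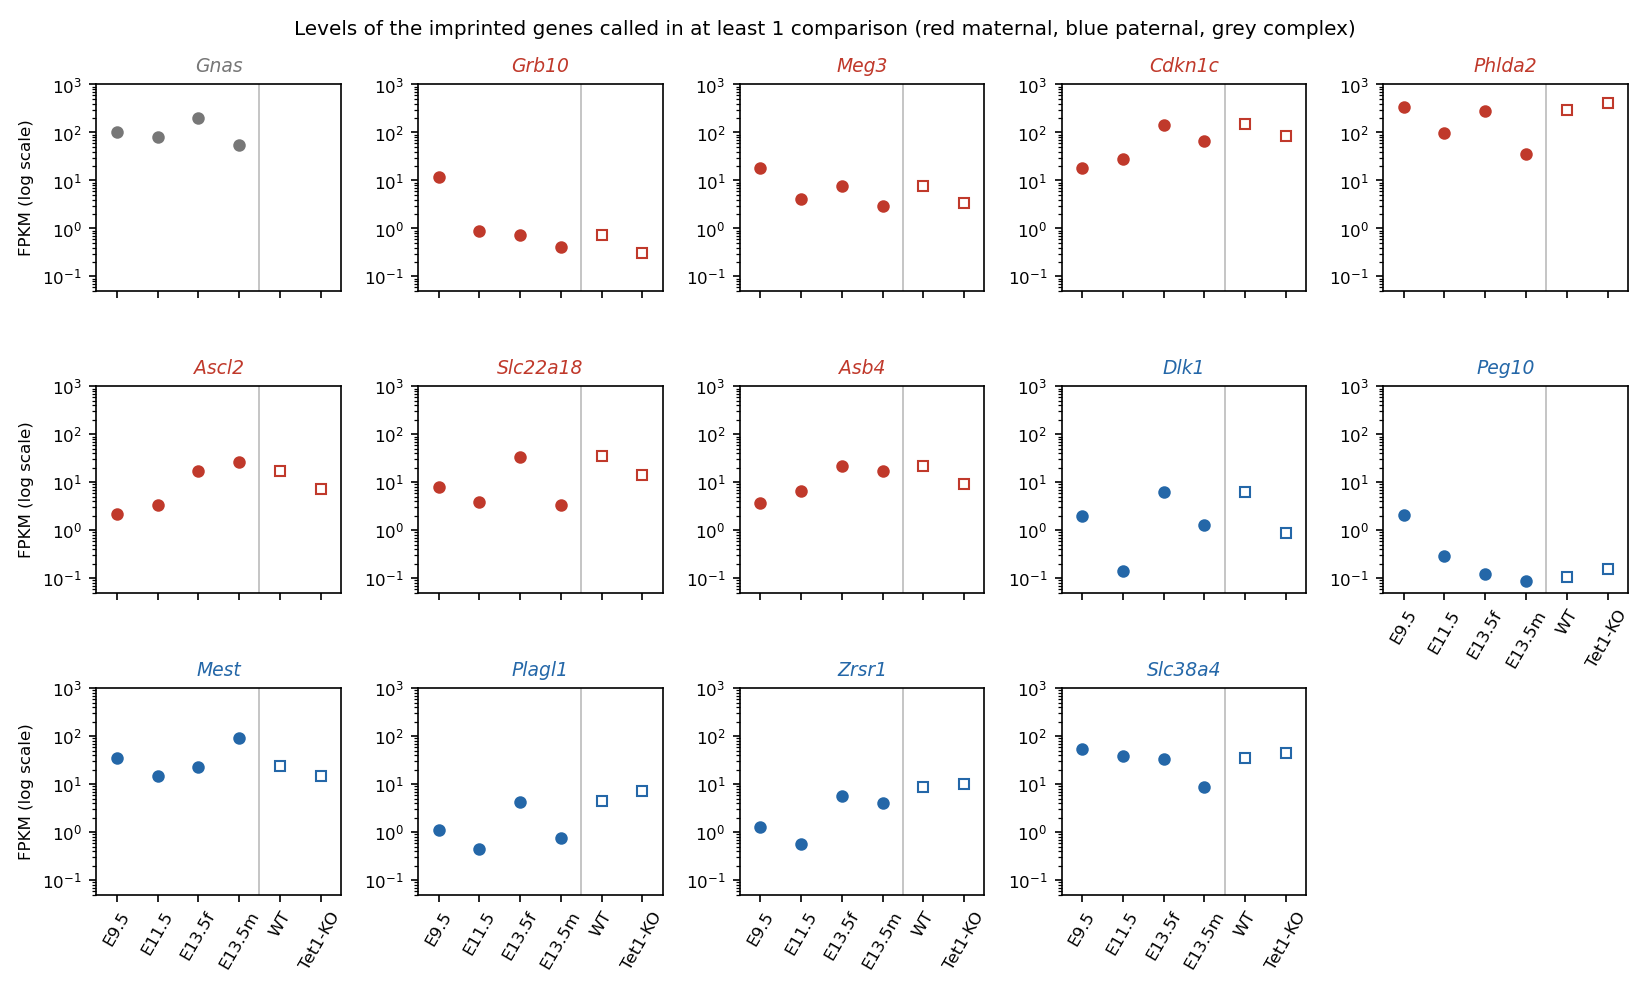
FPKM on a log axis for the 14 imprinted genes called in at least 1 table, 1 panel per gene. Filled circles are the 4 stage groups on the common scale and open squares, right of the grey line, are wild type (WT) and Tet1 -/- (Tet1-KO) from the knockout table. Titles are red for maternally expressed, blue for paternally expressed and grey for Gnas, which has no row in the knockout table, and each point is the authors' pooled value with no error. Grb10 and Peg10 are high at E9.5 alone, Dlk1 is lowest at E11.5, and Phlda2 and Slc22a18 are far lower at E13.5m than at E13.5f.

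Between E9.5 and E11.5, the span in which migrating cells reach the gonad, 5 imprinted genes fell and none rose among 34 with a completed test. Over the same interval 1.92% of all tested genes fell and 3.71% rose. At an unadjusted Cuffdiff p under 0.05, 9 members were lower and 1 was higher. Grb10 fell most firmly, with a log2 ratio of -3.70 ± 0.39 (SE) and a q listed as 0 in the authors' deposited table. Both genes of the Dlk1-Meg3 cluster fell, Dlk1 by 3.81 ± 1.03 (SE) on the log2 scale (q = 0.00819 in the authors' deposited table) and Meg3 by 2.12 ± 0.63 (SE) (q = 0.0218 in the authors' deposited table). Peg10 had a log2 ratio of -2.84 ± 0.89 (SE; q = 0.0299 in the authors' deposited table), and Phlda2 one of -1.83 ± 0.49 (SE; q = 0.00693 in the authors' deposited table). The fallers thus held 3 maternally and 2 paternally expressed genes.

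Counted over all 34 tested members, the 5 that fell included, 24 had a lower value at E11.5, against 33.0% of all tested genes, and 26 lay below the table's median log2 ratio of 0.32. The median change in log2(FPKM + 1), a scale that understates changes of low genes, was -0.39 for the members and 0.29 for all tested genes. Maternally expressed members had a median of -0.28 (9 of 14 lower) and paternally expressed members one of -0.43 (14 of 19 lower), and both medians lay below that of all tested genes. Without members biased in brain or placenta alone the maternal median was -0.93 and the paternal one -0.43, so that the order of the classes turned. H19 had a log2 ratio of -1.21 ± 0.64 (SE) and Igf2 one of -0.60 ± 0.56 (SE), and neither was called. Snrpn had one of 2.00 ± 0.92 (SE), not called. Blood markers fell over the same interval, as given above, and their part in these falls was not tested. In mm9, as the files give it, Grb10 lies on chromosome 11 (11830501 to 11937423), Dlk1 on chromosome 12 (110691032 to 110701546), Meg3 on chromosome 12 (110779205 to 110809939), Peg10 on chromosome 6 (4697305 to 4710516) and Phlda2 on chromosome 7 (150687452 to 150688429).

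**Figure D2:**
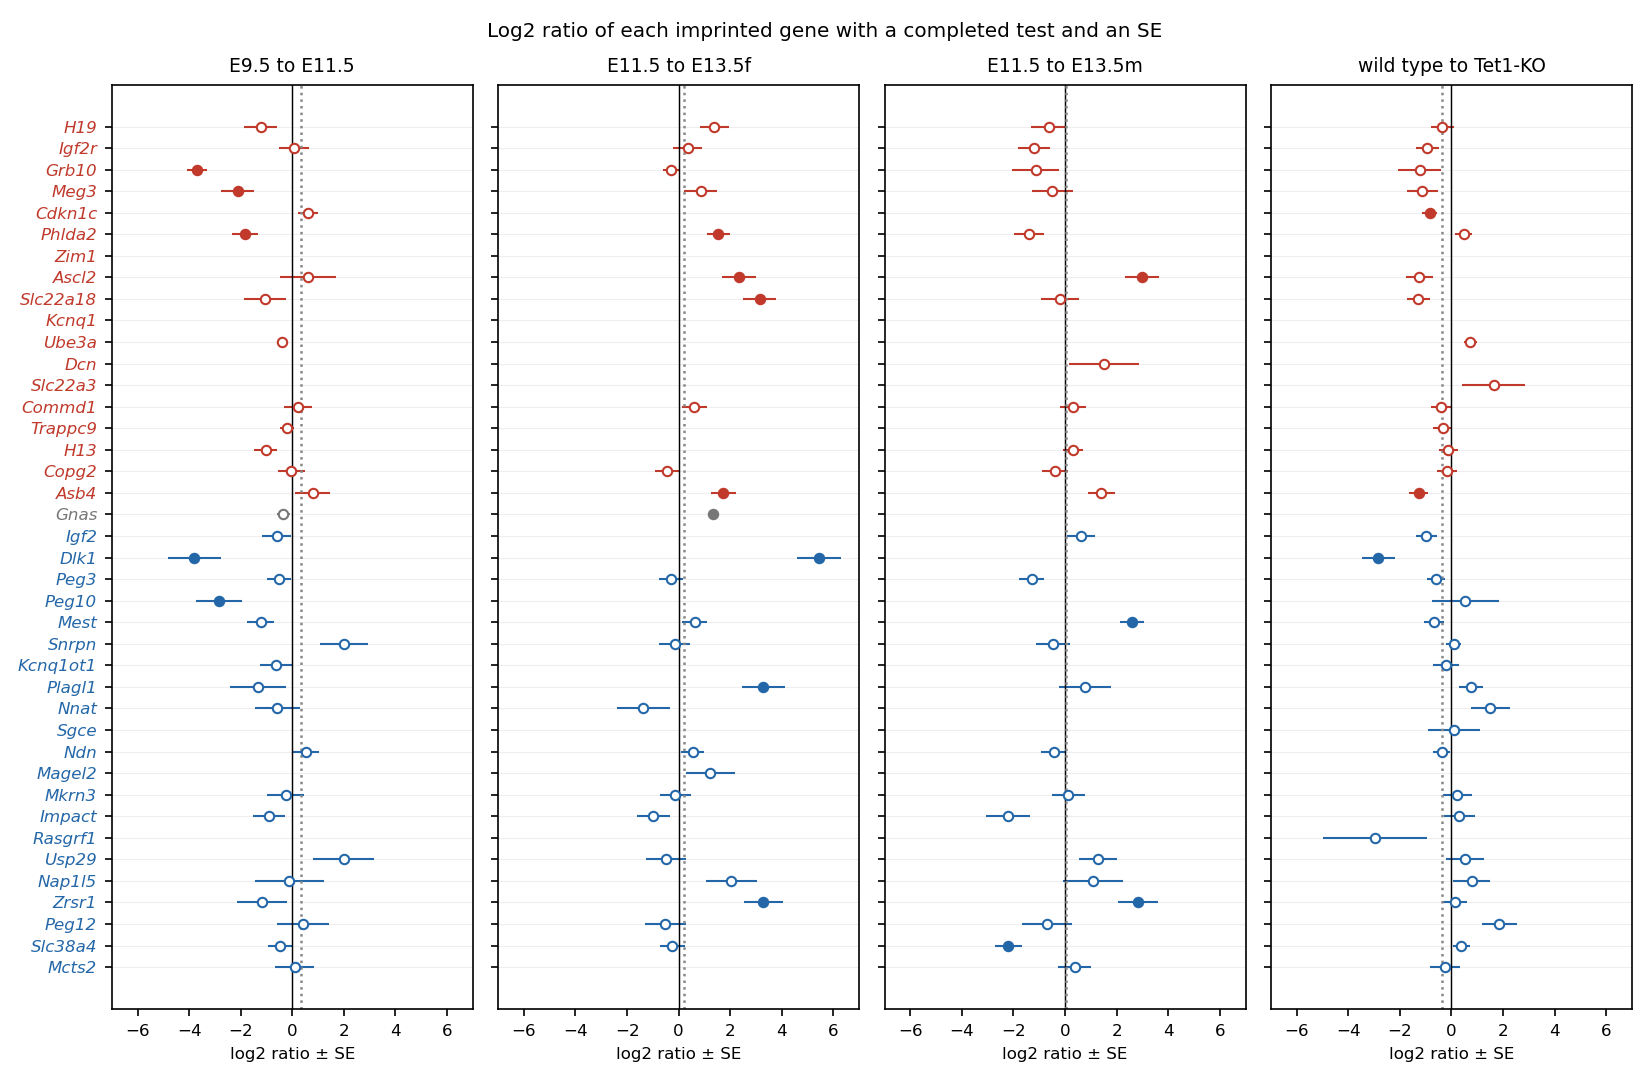
Log2 ratio (second group over first) of each imprinted gene with an SE, in 1 panel per comparison. Points are log2 ratios, red for maternally expressed, blue for paternally expressed and grey for Gnas, bars are 1 SE, filled points passed the authors' threshold and open points did not, and the dotted line is the median of the table. All called genes lie left of 0 in the E9.5 to E11.5 and knockout panels and right of 0 in the E13.5f panel.

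From E11.5 to E13.5f, when germ cells of female embryos enter meiosis, 8 imprinted genes rose and none fell among 27 with a completed test, where 9.34% of all tested genes rose and 2.68% fell. At an unadjusted Cuffdiff p under 0.05, 11 were higher and 0 lower. Dlk1 rose by a log2 ratio of 5.43 ± 0.85 (SE), with q = 7.17e-08 in the authors' deposited table. Zrsr1 rose by 3.29 ± 0.74 (SE) and Plagl1 by 3.28 ± 0.84 (SE), with q = 0.000458 and q = 0.00271 in the authors' deposited table. These 3 were the paternally expressed genes that rose, and all 3 had been below 1 FPKM at E11.5.

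Maternally expressed genes that rose were 3 of the Kcnq1ot1 cluster on chromosome 7 and Asb4. Slc22a18 (150659659 to 150685237) had a log2 ratio of 3.13 ± 0.64 (SE; q = 7.21e-05 in the authors' deposited table). Ascl2 (150152726 to 150155169) had one of 2.34 ± 0.65 (SE; q = 0.00652 in the authors' deposited table) and Phlda2 one of 1.54 ± 0.45 (SE; q = 0.0109 in the authors' deposited table). All 3 cluster members with a completed test therefore rose. Cdkn1c, from the same cluster, was at 28.1 and 145 FPKM but its test was not completed in the authors' table, as for Igf2 at 1.39 and 9.34 FPKM. Asb4 on chromosome 6 (5333385 to 5383021) rose by 1.72 ± 0.49 (SE; q = 0.00759 in the authors' deposited table). Gnas on chromosome 2 (174106737 to 174172243) rose by 1.32 ± 0.17 (SE; q = 1.87e-11 in the authors' deposited table).

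The parental classes are given as a description with no test. Of 10 tested maternally expressed members 8 had a higher value at E13.5f, with a median log2(FPKM + 1) change of 0.98. Of 16 tested paternally expressed members 8 had a higher value, with a median of 0.13. Among all tested genes 62.2% had a higher value and the median was 0.22. In the Snrpn-Ube3a region Ndn had a log2 ratio of 0.55 ± 0.45 (SE) and Snrpn one of -0.16 ± 0.58 (SE), and neither was called.

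From E11.5 to E13.5m, when male germ cells enter arrest, 3 imprinted genes rose and 1 fell among 28 with a completed test, where 2.94% of all tested genes rose and 1.94% fell. Mest on chromosome 6 (30688062 to 30846760, a locus shared with Copg2) rose by a log2 ratio of 2.60 ± 0.46 (SE; q = 4.91e-06 in the authors' deposited table). Ascl2 rose by 2.98 ± 0.64 (SE; q = 0.000366 in the authors' deposited table) and Zrsr1 (chromosome 11, 22799727 to 22882284, a locus shared with Commd1) by 2.82 ± 0.77 (SE; q = 0.0107 in the authors' deposited table). Copg2, over the same locus as Mest, had a log2 ratio of -0.39 ± 0.49 (SE) and was not called. Slc38a4 on chromosome 15 (96825253 to 96886387) fell, with a log2 ratio of -2.19 ± 0.54 (SE; q = 0.00279 in the authors' deposited table). Ascl2 and Zrsr1 were the 2 members that rose in both E13.5 groups, and both comparisons use the same E11.5 libraries. The summed level of mesenchyme markers, nearly all of it Sparc, was lower at E13.5m, and that of gonadal soma markers was higher, as given above. Their part in the changes of Mest, Ascl2, Zrsr1 and Slc38a4 was not tested.

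The order of the parental classes was the opposite of that at E13.5f. Of 12 tested maternally expressed members 7 had a lower value at E13.5m and the median log2(FPKM + 1) change was -0.26. Of 16 tested paternally expressed members 10 had a higher value and the median was 0.19. For the 11 among these whose promoter lies in a germline methylated region the median was 0.35, with 8 higher, for the other 5 it was -0.42, with 2 higher, and for all tested genes it was 0.05. The same split gave medians of -0.50 and -0.31 from E9.5 to E11.5 (13 and 6 tested) and of 0.22 and 0.13 from E11.5 to E13.5f (10 and 6 tested). At an unadjusted Cuffdiff p under 0.05, 4 members were higher and 4 lower. Asb4 had a log2 ratio of 1.41 ± 0.51 (SE), Phlda2 one of -1.40 ± 0.59 (SE), Igf2r one of -1.21 ± 0.62 (SE), Peg3 one of -1.30 ± 0.49 (SE) and Impact one of -2.20 ± 0.85 (SE), none of them called.

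**Figure D3:**
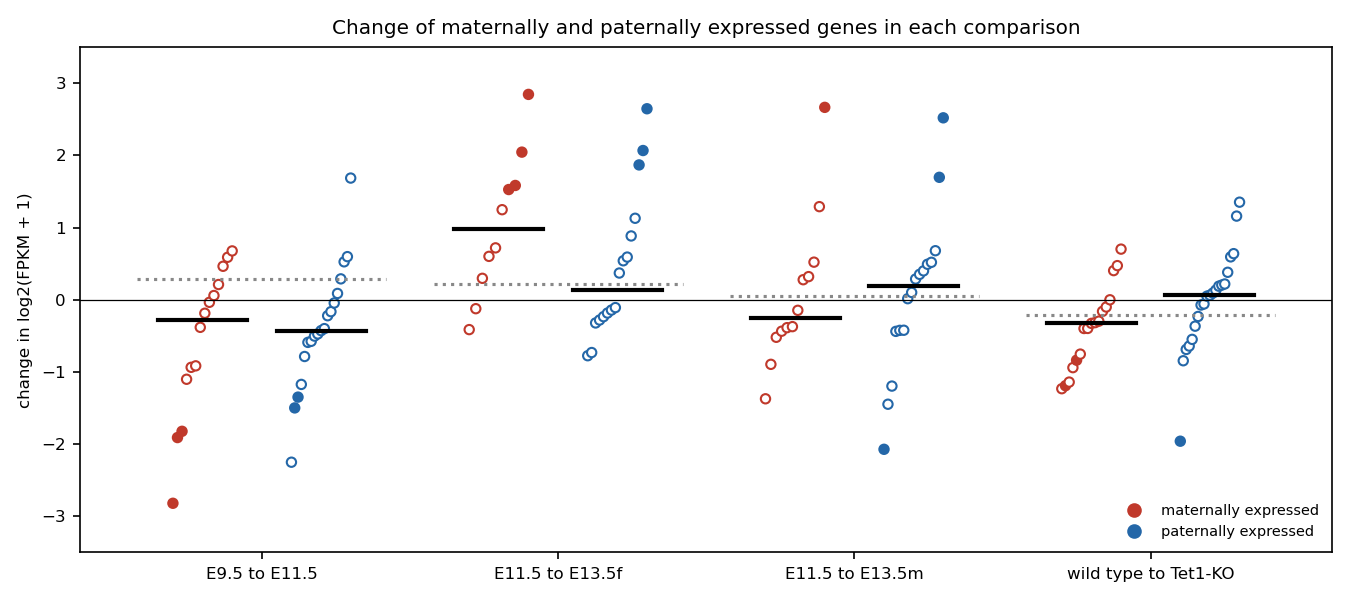
Change in log2(FPKM + 1) for each tested imprinted gene, by parental class and comparison. Red circles are maternally expressed and blue circles paternally expressed genes, filled where the authors' test passed, with black bars at the class medians and dotted lines at the median of all tested genes. The maternal median lies above the paternal one at E13.5f (0.98 against 0.13) and below it at E13.5m (-0.26 against 0.19) and in the knockout (-0.33 against 0.06).

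No deposited table set E13.5m against E13.5f, so for 22 members with both SEs the ratios to E11.5 were compared by the difference of their log2 values. Phlda2 was lower in E13.5m by a log2 difference of -2.93 ± 0.75 (SE), at 36.5 against 278 FPKM on the common scale, with a Benjamini-Hochberg adjusted p of 0.0499 over 10677 genes. It was the 1 member that passed, where 0.169% of all genes passed. After centring both tables on their medians the difference was -2.76 and the adjusted p 0.0879, so that the call was lost under that scaling. Slc22a18, beside Phlda2 in the genome, had a difference of -3.32 ± 0.98 (SE) and an adjusted p of 0.185 and did not pass.

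Other members differed in value without passing. Mest stood at 89.7 FPKM in E13.5m and 22.9 in E13.5f, a log2 difference of 1.97 ± 0.67 (SE) with an adjusted p of 0.484. Slc38a4 had a difference of -1.95 ± 0.72 (SE), and H19 one of -2.02 ± 0.88 (SE), both lower in E13.5m. At an unadjusted p under 0.05 stood 5 of the 22 members, 22.7%, where 3.76% of all genes did, 4 of the 5 being lower in E13.5m. The median difference was -0.91 for the members and -0.24 for all genes. This test counts the error of the E11.5 libraries in both ratios, and no sample label gives the sex of the cells in the E13.5f column.

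**Figure D4:**
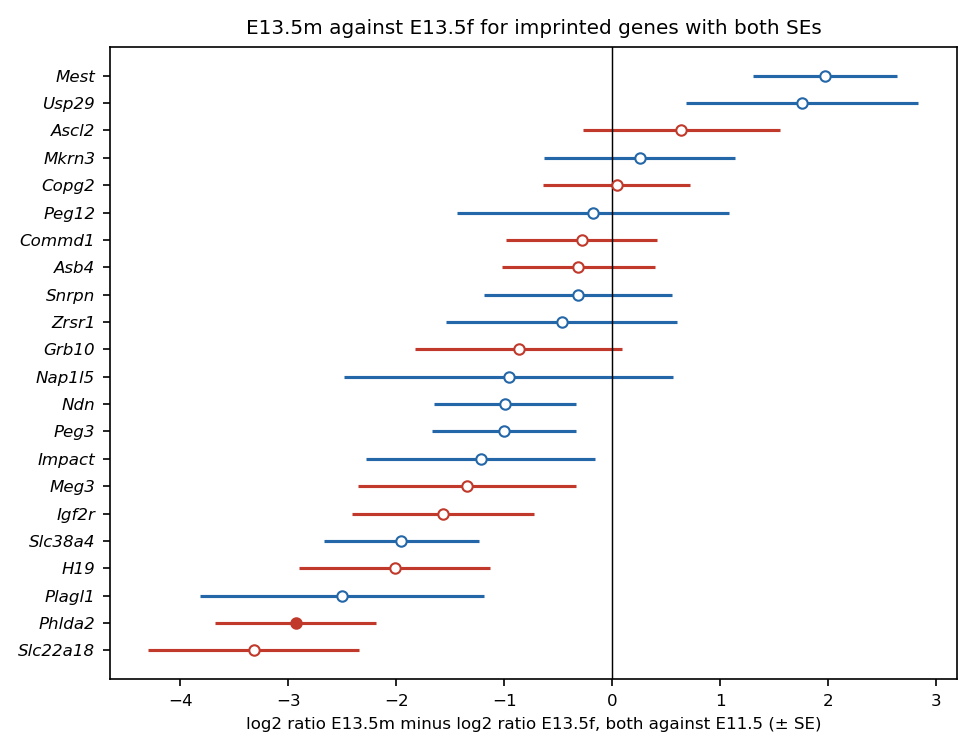
Log2 ratio of E13.5m minus log2 ratio of E13.5f, both against E11.5, for the 22 imprinted genes with both SEs, ordered by size, with bars of 1 SE. Red points are maternally and blue points paternally expressed genes, the filled point passed the adjusted test, and the shared E11.5 libraries enter both ratios. Phlda2, at -2.93, is the filled point, and Slc22a18, at -3.32, and Mest, at 1.97, lie at either end.

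The last question was which imprinted genes change at E13.5 when Tet1 is missing. Tet1 was measured at 6.36 FPKM in wild type and 0.218 in Tet1 -/-, a log2 ratio of -4.87 ± 0.67 (SE; FDR = 1.55e-10 in the authors' deposited table). Of 38 imprinted genes tested 3 fell and none rose, where 5.48% of all tested genes fell and 0.677% rose. At an unadjusted Cuffdiff p under 0.05, 8 were lower and 3 higher. Dlk1 fell, with a log2 ratio of -2.83 ± 0.63 (SE; FDR = 0.000872 in the authors' deposited table). Cdkn1c on chromosome 7 (150644243 to 150646955) fell, with a log2 ratio of -0.85 ± 0.28 (SE; FDR = 0.0441 in the authors' deposited table), as did Asb4, with one of -1.28 ± 0.38 (SE; FDR = 0.0219 in the authors' deposited table). The table's median log2 ratio was -0.38. Relative to that median 2 members rose and 1 fell, where 1.92% of all genes with an SE rose and 1.58% fell. Dlk1 stayed lower, at -2.45 with an adjusted p of 0.00746, while Cdkn1c, at -0.47, and Asb4, at -0.90, did not pass. Those higher relative to the median were Ube3a, at 1.11 with an adjusted p of 0.00231, and Peg12, at 2.23 with an adjusted p of 0.0326.

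Both of these come from the Snrpn-Ube3a region, though from opposite parental copies. Ube3a was at 19.3 FPKM in wild type and 31.9 in Tet1 -/-, with a log2 ratio of 0.73 ± 0.26 (SE) that the authors' deposited table did not call (FDR = 0.0668). Peg12, a paternally expressed intronless gene, was at 1.46 and 5.26 FPKM, with a log2 ratio of 1.85 ± 0.67 (SE), not called in the authors' deposited table (FDR = 0.0713). All 5 members of the region with a ratio lay above the table's median, the others being Mkrn3, at 0.61 relative to it, Snrpn, at 0.47, and Ndn, at 0.01, none of which passed. In FPKM Mkrn3 was at 4.20 and 4.92, Snrpn at 121 and 129, Ndn at 91.6 and 70.8, and Magel2 at 0.612 and listed at 0. Magel2 thus had a lower value in Tet1 -/- but no ratio, and is not among the 5.

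In the Kcnq1ot1 cluster 5 of 6 members had a lower value in Tet1 -/-, Cdkn1c being the 1 called. Relative to the table's median 2 lay above and 3 below, and Kcnq1, lower in value but listed at 0 in Tet1 -/-, had no ratio and is in neither count. Among the 3 that rose towards E13.5f, Slc22a18 had a log2 ratio of -1.29 ± 0.44 (SE; FDR = 0.0537 in the authors' deposited table), and Ascl2 one of -1.24 ± 0.51 (SE; FDR = 0.123 in the authors' deposited table). Phlda2 had one of 0.47 ± 0.32 (SE; FDR = 0.376 in the authors' deposited table), the 1 cluster member with a higher value in Tet1 -/-, and none of these 3 was called. The knockout and E13.5f comparisons may share their E13.5 wild-type libraries, so no agreement between them is counted here. Igf2 was at 9.69 and 4.95 FPKM, Igf2r at 5.73 and 2.99 FPKM, and Meg3 at 7.55 and 3.46 FPKM, none of them called. Paternally expressed Plagl1 was at 4.37 and 7.35 FPKM, Zrsr1 at 8.88 and 9.83 FPKM and Slc38a4 at 34.2 and 44.9 FPKM, also not called.

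By class, 14 of 17 maternally expressed members had a lower value in Tet1 -/-, with a median log2(FPKM + 1) change of -0.33. Of 21 paternally expressed members 9 had a lower value, with a median of 0.06. Among all tested genes 67.6% had a lower value and the median was -0.21. Relative to the table's median log2 ratio, maternally expressed members lay on either side, 8 above and 8 below, and paternally expressed members lay mostly above, 15 against 5. Maternally expressed Kcnq1 and paternally expressed Magel2 were lower in value but listed at 0 in Tet1 -/-. They have no ratio, so these counts and those that follow leave them out. Of the 13 paternally expressed members with a promoter in a germline methylated region 11 lay above and 2 below, with none called, and of the other 8, 4 lay above and 3 below, with Dlk1 called lower. Germ cell markers summed to 4351 FPKM in wild type and 3130 in Tet1 -/-, with Sox2 rising and Dazl falling. Of 6 tested mesenchyme markers Pdgfra and Pdgfrb fell, with a list sum of 162 and 154 FPKM. Nearly all of that sum was Sparc, at 161 and 153 FPKM and not called. Of 8 tested gonadal soma markers 7 had a higher value in Tet1 -/-, none called, with a sum of 3.01 and 6.82 FPKM. The part of such changes in the values of imprinted genes was not tested.

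Genes that write, read or protect imprints were followed as a list of 18. None was called between E9.5 and E11.5 (13 tested), from E11.5 to E13.5f (10 tested) or from E11.5 to E13.5m (11 tested), with 4, 1 and 1 higher and 0 lower at an unadjusted Cuffdiff p under 0.05. In the knockout 3 of 17 fell, where 5.48% of all tested genes did, and 1 of the 3 was the deleted gene: Tet1, Uhrf1, a cofactor of maintenance methylation, and Tet3. Uhrf1 was at 11.7 FPKM in wild type and 5.86 in Tet1 -/-, a log2 ratio of -0.99 ± 0.33 (SE; FDR = 0.0433 in the authors' deposited table), and relative to the table's median it was at -0.61 and did not pass. Tet3 was at 0.261 and 0.00894 FPKM, a low level in both groups (FDR = 0.0191 in the authors' deposited table). Zfp57, which encodes the protein that keeps imprints methylated in the early embryo, was at 2.98 FPKM in wild type and 1.33 in Tet1 -/-, and Trim28, its corepressor, at 452 and 566 FPKM, neither called.

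A second list held 47 further genes reported as imprinted in some tissue. Between E9.5 and E11.5, 2 of 30 tested rose, Dhcr7 and Adam23, and 2 fell, Rian and Th, beside 3.71% and 1.92% of all tested genes. Relative to the table's median Dhcr7 was at 1.2 here and at 1.11 at E13.5f, and did not pass in either. Rian is a non-coding RNA of the Dlk1-Meg3 cluster and went from 4.35 to 0.464 FPKM over the interval in which Dlk1 and Meg3 fell. From E11.5 to E13.5f 4 of 27 rose, where 9.34% of all tested genes did: Dio3, Blcap, Adam23 and Dhcr7, and none fell (8 higher and 0 lower at an unadjusted Cuffdiff p under 0.05). Dio3, a deiodinase gene at the far end of the Dlk1-Meg3 cluster, went from 0.183 to 4.75 FPKM, and at E13.5m it rose as well, to 3.81 FPKM. Rian was at 0.404 FPKM at E11.5 and 0.602 at E13.5f and was not called, so the listed genes of that cluster that rose at E13.5f were Dlk1 and Dio3. From E11.5 to E13.5m 3 of 24 rose, Dio3, Th and Gatm, where 2.94% of all tested genes did. In the knockout 2 of 40 fell, a share close to the 5.48% of all tested genes: Blcap and Nap1l4, a histone chaperone gene next to Phlda2, which went from 517 to 244 FPKM. Relative to the table's median neither passed, Blcap at -0.91 and Nap1l4 at -0.70.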

How the data were processed

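Messenger RNA libraries were made after cDNA amplification, from 2 to 70 ng of product, per the labels' protocols. Bowtie and TopHat 1.3.1 are named in the submitters' processing notes, with Cuffdiff and Cufflinks 1.2.1 and 1.0.3 and the mouse build mm9. Per the file headers, the 4 tables that the authors deposited are Cuffdiff output, and their FPKM values join all libraries of a group. The p-value and the q-value or FDR of each row are the authors' own. The test statistic in the stage tables was deposited by the authors and is treated as a score, and so is the deposited FDR of the knockout table, which exceeds 1 in 2182 rows. Depth is unknown, so there is no counting interval.

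Groups follow the titles, ages and genotypes. Each log2 ratio was recomputed from both FPKM values. Its SE was obtained by dividing it by the deposited statistic or, in the knockout table, by the normal deviate matching the p-value, if over 0.05. Ratios with a value of 0 were not formed. Calls are the authors', at 0.05. On the common scale the E9.5 table is multiplied by 0.870 and the E13.5m table by 0.976. E13.5m was compared with E13.5f by a two-sided normal test on the difference, adjusted by Benjamini-Hochberg. Members with a call are described in full. The rest are given by counts, and by name where they neighbour a called member or reach 20 FPKM, and others were named after their values were seen. The members and all lists were chosen with earlier results of these data known. Parental classes and methylated promoters come from general knowledge, not from these data. Alternatives were calling at 0.01, readjusting the p-values, requiring 1 FPKM or an absolute log2 ratio of 1, centring on the table median, a pseudocount of 0.1 in place of 1, and leaving out members biased in brain or placenta alone. RefSeq promoters were used for 32 of 40 members, and windows on chromosome 18, where Impact lies, were left out. The software was matplotlib 3.10.9, scipy 1.17.1, numpy 2.4.6, pandas 2.3.3 and Python 3.11.15.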

Additional observations from a re-analysis of the deposited data

Results flagged for a closer look

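Phlda2 differed between the E13.5 groups by the test of the difference itself, its log2 difference (E13.5m minus E13.5f) being -2.93, with an unadjusted p of 8.41e-05 and an adjusted p of 0.0499. It did not pass at 0.01 or after centring, where the adjusted p was 0.0879. Its change from E11.5 was a rise at E13.5f, and at E13.5m a lower value that was not called. The E13.5m libraries come from the set of libraries made from 400 to 5000 cells, and the libraries behind the E13.5f column are not known.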

How the results depend on the processing

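No paired analysis was possible because the deposited tables hold 1 pooled value per group, and for the same reason no library could be left out. Of 90 counts and medians under an alternative, 83 stayed within 1.5 times the reported count or within the members' median SE of the reported median. For single genes only centring changes the log2 ratio, and under it no gene called in any setting turned its direction. The other alternatives can change only the call. Of 115 single-gene calls, 103 were unchanged, 9 were lost and 3 were gained. Among those 83, 5 medians took the other sign. For paternally expressed members at E13.5f they were -0.11 at 1 FPKM or more and -0.04 when centred. For all members at E13.5m it was -0.15 at 1 FPKM or more. In Tet1 -/- when centred they were 0.21 for all members and 0.01 for maternally expressed members. Centring of class medians subtracted the median change of only those genes that reached 1 FPKM on each side of the comparison. It did not use the median of all tested genes, which was -0.21 in Tet1 -/-. The maternal median of -0.33 lay below that value, so its change of sign depends on which genes set the centre. Calls of Meg3 and Peg10 at E11.5, Phlda2 at E13.5f, Zrsr1 at E13.5m and Cdkn1c and Asb4 in Tet1 -/- were lost at 0.01. At a threshold of 0.01 the members lower at E11.5 numbered 3 in place of 5, those lower in Tet1 -/- 1 in place of 3, and those differing between E13.5m and E13.5f 0 in place of 1. Centring on the table median gave 2 members higher and 1 lower in Tet1 -/- and 0 differing between the E13.5 groups. Without members biased in brain or placenta alone, the maternal median change from E9.5 to E11.5 was -0.93 in place of -0.28. Ube3a also fell relative to the median from E9.5 to E11.5, at -0.72. Members' log2 ratios had a median SE between 0.45 and 0.65, which limits what single genes can show.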
